A study of Mus musculus with 10 samples.

Results

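The synaptic vesicle release machinery was followed gene by gene in 10 single inspiratory neurons of the preBötzinger complex (preBötC), a region of the medulla that generates the breathing-in phase of respiration. The 37 genes were chosen by name, as listed SNARE, synaptotagmin, complexin, synapsin, active zone, priming and neurexin genes, and all 37 were among the 55367 genes in the files. Each sample is 1 library from 1 neuron that was patched in a rhythmically active slice of neonatal mouse brainstem, classified by its membrane properties and then aspirated. The set holds 4 Type-1 neurons, which are putatively rhythmogenic (neurons 4, 5, 6 and 7, aged P3, P0, P3 and P3), 1 Type-2 neuron, putatively of the output pattern (neuron 1, P0), and 5 neurons of Unknown type (neurons 2, 3, 8, 9 and 10, aged P2, P0, P0, P2 and P1). Neurons 1, 5, 6 and 7 were Dbx1-derived and came from Dbx1;Ai148 pups, in which Cre driven by the Dbx1 promoter turns on the calcium indicator GCaMP6f in cells whose precursors expressed Dbx1. Neurons 2, 3, 4, 8, 9 and 10 came from CD-1 wild-type pups without a reporter, so their lineage is not known. These lines follow the sample labels. The study's figure legends order the lines by sample differently, while the numbers of neurons per type and line in its main text match the labels. Every comparison of Dbx1-derived neurons rests on the labels. All 5 Unknown neurons were CD-1 and 3 of the 4 Type-1 neurons were Dbx1-derived, so that type and mouse line cannot be told apart except through neuron 4. The labels name no animal, each sample is 1 cell, and the Type-2 group is 1 neuron. No test between types was therefore made and no p-value is given. Values stand per neuron, and an SD is the spread over neurons.

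A neurotransmitter is released when a synaptic vesicle fuses with the presynaptic membrane. The vesicle SNARE (Vamp1 or Vamp2) zips together with the membrane SNAREs (Stx1a and Snap25), complexins clamp and promote fusion, and synaptotagmins sense the calcium that triggers it. Nsf and its adaptors Napa and Napb then take the spent SNARE complex apart. Munc13 proteins (the Unc13 genes) and CAPS proteins (the Cadps genes) prime vesicles, and Rims, Bsn, Pclo and Erc2 build the active zone where they dock. Synapsins tether the vesicle reserve, Rab3 proteins mark vesicles, and neurexins join the terminal to its target. In the brainstem, as elsewhere, neurons differ in which paralog of each family they use.

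Levels are the deposited FPKM values (a fragment count divided by the length of the gene in kilobases and by the library's total in units of 1000000). FPKM is a level per length, so that genes can be set against each other on it. A gene is called detected in a neuron at 1 FPKM or more. Libraries held between 21392146 and 36629393 fragments on genes. Reads carried no molecular identifiers, and limits given for a count of 0 (3 counts per library) and intervals on counts cover counting error only. Members were read against 11642 background genes with 10 or more counts in at least 3 neurons. Of the members, 36 passed that filter, and Cadps2 did not.

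The library of neuron 4 stood apart. Its neuron marker list, 8 genes without any member, summed to 54.3 FPKM, against 633 to 5549 FPKM in the other 9 neurons, although 5 of the 8 markers were still at 1 FPKM or more. The 8 microglia markers were all detected there and summed to 17131 FPKM. They were also all detected in neuron 2, where they summed to 2118 FPKM, and in the remaining 8 their sum did not pass 579 FPKM. The 10 astrocyte markers summed to between 151 FPKM and 6714 FPKM, highest in neurons 3, 4, 2 and 8. In neuron 4 Apoe alone gave 4991 of 5125 FPKM, and 5 of the 10 markers were detected. In neurons 3, 2 and 8 the detected numbers were 9, 8 and 10. Of 5 endothelial markers, Cldn5, Pecam1 and Cdh5 were at 0 in every neuron. Neurons 1 to 4 and 9 held between 5055 and 6795 genes at 1 FPKM or more, and the other neurons between 8720 and 9307. The study's quality control found the least cDNA in the libraries of neurons 1 to 4, which include the Type-2 neuron. How far RNA from other cells, the amount of cDNA or the lower number of detected genes bears on the values below was not tested. The count of members detected in all neurons and the comparisons of Type-1 with Unknown neurons are given with and without neuron 4. Counts of the leading paralog include it.

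To show the start sites of the genes under study, RefSeq windows on GRCm38.p6 from 250 bases before to 50 bases after the start were searched on both strands. Windows were found for 28 of the 37 members. The GC box, GGGCGG, was in the windows of 22 of the 28, against 38.2% of the 27025 genes with a window. The TATA box, TATAAA, was in 1, that of Sv2b, against 15.7% of all genes. The CCAAT box, CCAAT, was in 11, against 41.1% of all genes. The median number of CG dinucleotides was 20.5 per member and 8 over all genes. The full cAMP response element, TGACGTCA, was found in Napa and Syn1 (2.03% of all genes), and the left part of the RE1 element, TTCAGCACC, in Syn1 and Unc13a (0.433% of all genes). RE1 is the element bound by the repressor REST, known for silencing neuronal genes outside neurons. A match is a description of the letters and not a site of binding. These 3 windows are printed because they are the member windows that hold either of these motifs, the rarest of those searched. Napa was detected in all 10 neurons, Syn1 in 9 and Unc13a in 4, and a link of motif to detection was not tested. Capitals mark the motifs, each line runs 5′ to 3′ along the strand of the gene, and the element of Unc13a lies on the opposite strand.
Napa (chr7:16098330-16098629, plus strand): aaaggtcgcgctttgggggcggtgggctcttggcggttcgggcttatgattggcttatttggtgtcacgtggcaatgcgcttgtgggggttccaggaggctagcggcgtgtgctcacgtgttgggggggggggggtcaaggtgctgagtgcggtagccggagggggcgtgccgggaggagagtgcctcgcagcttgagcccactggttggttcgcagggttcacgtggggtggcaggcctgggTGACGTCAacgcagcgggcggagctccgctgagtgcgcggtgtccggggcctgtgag
Syn1 (chrX:20920869-20921168, minus strand): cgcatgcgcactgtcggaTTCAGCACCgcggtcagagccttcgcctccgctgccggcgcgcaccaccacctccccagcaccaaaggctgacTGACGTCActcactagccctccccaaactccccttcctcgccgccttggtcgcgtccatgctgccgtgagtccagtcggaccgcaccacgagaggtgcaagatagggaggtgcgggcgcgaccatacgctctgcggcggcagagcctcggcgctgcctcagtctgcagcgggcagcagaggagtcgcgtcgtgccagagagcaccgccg
Unc13a (chr8:71671708-71672007, minus strand): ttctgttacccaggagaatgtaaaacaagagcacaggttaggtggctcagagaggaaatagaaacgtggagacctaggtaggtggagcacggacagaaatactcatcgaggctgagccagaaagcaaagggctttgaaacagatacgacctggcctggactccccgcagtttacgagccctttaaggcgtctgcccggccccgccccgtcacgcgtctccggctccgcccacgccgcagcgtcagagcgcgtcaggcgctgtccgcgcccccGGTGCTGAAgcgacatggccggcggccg

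Most release genes were present in most neurons. Between 20 and 34 of the 37 members were detected in each neuron other than neuron 4, where 10 were. In neurons 1 to 10 the numbers were 24, 20, 23, 10, 34, 31, 31, 31, 29 and 31. The share of background genes detected ran from 40% in neuron 1 to 73.5% in neuron 5 and was 50.5% in neuron 4. Neuron 4 thus had the fewest members but not the fewest background genes. In all 10 neurons 6 genes stood at 1 FPKM or more: Snap25, Vamp2, Nsf, Napa, Syt11 and Cplx1 (6 of 37, against 11.1% of background genes). Leaving out neuron 4 added Stx1a, Syt4, Syn1, Syn2, Syp, Rab3a and Cadps, which gave 13 of 37, against 12.9% of background genes.

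**Figure D1:**
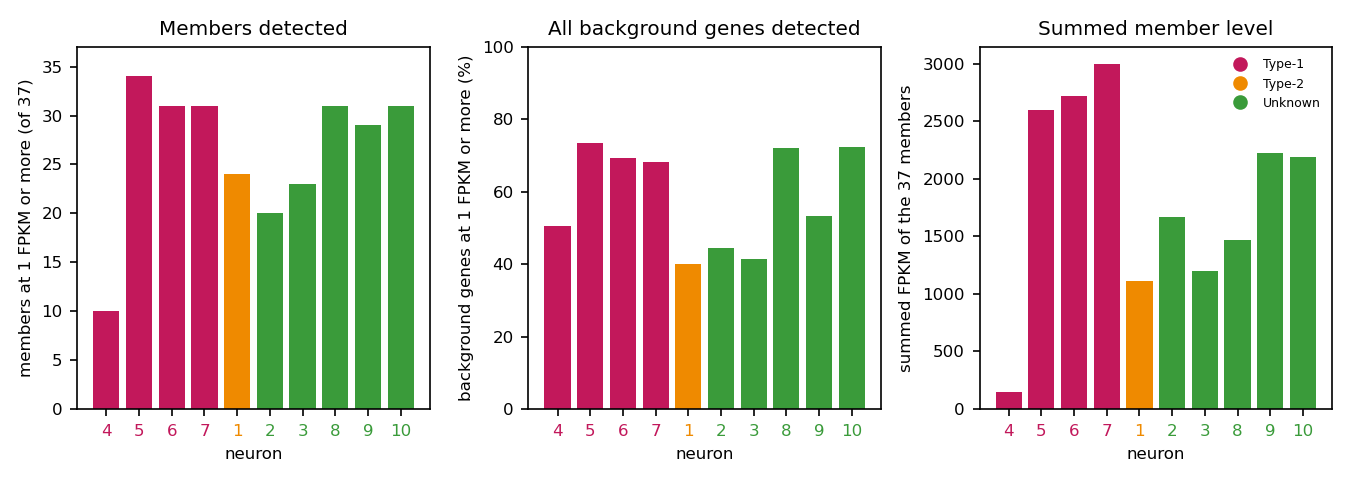
Bars give, for each neuron (sample number on the x axis, coloured by type), the number of the 37 members at 1 FPKM or more, the percent of 11642 background genes at that level, and the summed FPKM of the members. Neuron 4 had 10 members and 152 FPKM in sum, while 50.5% of its background genes were detected.

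The summed level of the 37 members was 2595, 2720 and 2994 FPKM in the Dbx1-derived Type-1 neurons 5, 6 and 7, a mean of 2770 ± 204 (SD, n = 3 neurons). In the Unknown neurons 2, 3, 8, 9 and 10 it was 1666, 1198, 1472, 2226 and 2191 FPKM, a mean of 1751 ± 450 (SD, n = 5 neurons). The Type-2 neuron had 1116 FPKM and neuron 4 had 152 FPKM. The 3 Dbx1-derived Type-1 neurons lay above all other neurons in this sum of deposited FPKM, an order that rested on the scaling. Under TMM scaling (a trimmed mean of log ratios between libraries), library factors were 1.26, 1.30 and 1.25 in neurons 5, 6 and 7. The factor of neuron 9 was 0.909, and with sums divided by these factors neuron 9 was the highest. Under scaling by the median ratio the factor of the Type-2 neuron was 0.376, and its sum became the highest. As a share of all fragments on genes, members took between 0.539% and 1.35% in 9 neurons and 0.0731% in neuron 4.

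**Figure D2:**
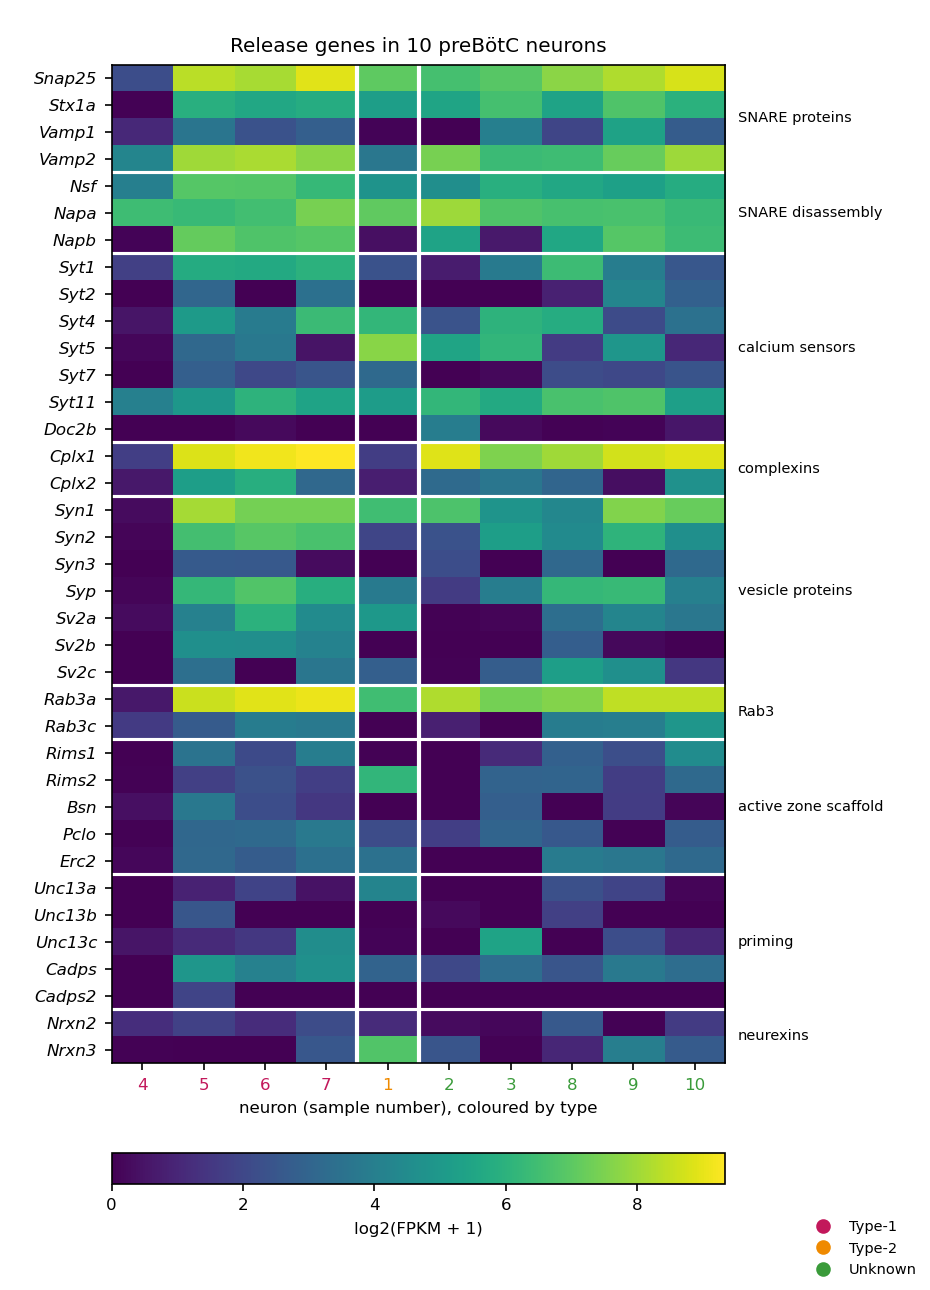
Colour gives log2(FPKM + 1) of each member (rows, grouped by role) in each neuron (columns, Type-1 neurons 4 to 7, then the Type-2 neuron 1, then the Unknown neurons). Snap25, Cplx1 and Rab3a are the brightest rows, the column of neuron 4 is dark for most genes, and the Unc13 rows change from neuron to neuron.

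The core SNARE genes were among the highest. Snap25 (chromosome 2, 136713453 to 136782428, plus strand, GENCODE M21 on GRCm38), the membrane SNARE that contributes 2 helices to the fusion complex, was at 130, 95.7, 121, 3.63, 328, 276, 483, 209, 296 and 442 FPKM in neurons 1 to 10. Neuron 4 was far below the rest, at 725 fragments (exact 95% Poisson interval 673 to 780), and the Type-2 neuron lay within the range of the Unknown neurons. Stx1a (chromosome 5, 135023482 to 135051100), the syntaxin of the presynaptic membrane, was at 37.1, 42.6, 94.3, 0.051, 58.7, 47.6, 53.4, 42.2, 108 and 61.8 FPKM. Apart from neuron 4, its values differed by less than 3-fold.

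Of the vesicle SNAREs, Vamp2 led Vamp1 in all 10 neurons. Vamp2 (chromosome 11, 69088490 to 69092384), the main synaptobrevin of forebrain terminals, was at 12.1, 170, 81.7, 17.9, 258, 286, 207, 84.9, 144 and 253 FPKM. The Type-2 neuron had the lowest value, below even neuron 4. Vamp1 (chromosome 6, 125215551 to 125245964), the synaptobrevin known for fast brainstem and motor terminals, was at 0.0736, 0.0136, 15.5, 1.11, 11.5, 4.07, 6.05, 2.89, 40.4 and 5.51 FPKM. It was highest in neuron 9, where Vamp2 made up 78.1% of the pair, and nearly missing in neurons 1 and 2, which held 16 and 5 fragments. The length used for Vamp1, 10167 bases against 3809 for Vamp2, covers every annotated exon, so an isoform with a short end would be understated in FPKM. With counts not divided by length, the order of the pair was the same in all 10 neurons.

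The SNARE disassembly genes split into a steady and a variable adaptor. Napa (chromosome 7, 16098458 to 16117975), alpha-SNAP, which all cells use, was at 133, 252, 109, 86.5, 77, 90.1, 170, 98, 101 and 80.3 FPKM, and had the smallest spread of the 37 genes on the log2(FPKM + 1) scale (SD 0.54, n = 10 neurons). Napb (chromosome 2, 148693985 to 148732467), the beta-SNAP of neurons, was at 0.298, 41.7, 0.569, 0.0675, 141, 108, 118, 46.7, 118 and 83.7 FPKM (SD 2.99 on the same scale). Neurons 1, 3 and 4 had Napb under 1 FPKM while the other 7 were at 41.7 FPKM or more, with nothing in between. Nsf, the ATPase that pulls SNARE complexes apart, was at 27, 23.3, 58.9, 15.4, 116, 115, 75.8, 48.1, 38.6 and 53.7 FPKM and was detected everywhere.

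Among the calcium sensors, Syt11 had the highest mean level, 55.3 ± 30.2 FPKM (SD, n = 10 neurons), and was detected in all 10. It is a synaptotagmin that does not bind calcium itself. Syt1 (chromosome 10, 108497650 to 109010982), the fast sensor of synchronous release, was at 4.15, 0.655, 12.9, 2.38, 53.2, 50.3, 62.5, 83.6, 14.7 and 4.76 FPKM. The 4 neurons at 50 FPKM or more were neurons 5, 6, 7 and 8. Those 4 were also the neurons with the vesicular glutamate transporter Slc17a6 at 101, 158, 156 and 230 FPKM. The other 6 had 1.85 FPKM or less, and among them neurons 1 to 4 gave the least cDNA. How many background genes split the neurons in the same way was not counted, and a link to Slc17a6 was not tested.

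Syt2 (chromosome 1, 134646677 to 134762593), the fast sensor that replaces Syt1 at many brainstem and spinal terminals, was at 7.39 FPKM in neuron 5, 10 in neuron 7, 18.1 in neuron 9 and 6.24 in neuron 10. It was at 0.803 FPKM in neuron 8, and the remaining 5 neurons did not pass 0.0184 FPKM. It had 0 fragments in neurons 3, 4 and 6, which allows up to 0.0133 FPKM. In neurons 9 and 10 Syt2 was above Syt1, which made up 44.8% and 43.3% of the pair there, and Syt1 led in the other 8. Neuron 9 thus had the highest Vamp1 and the highest Syt2 of the set. It was also the neuron in which all 3 cholinergic markers were detected, with Slc18a3 at 444, Slc5a7 at 28.8 and Chat at 1.8 FPKM. The same list summed to 1.31 FPKM or less elsewhere, and its link to these values was not tested.

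Of the other synaptotagmins, Syt5 was at 204, 43.4, 70.7, 0.128, 7.82, 12.3, 0.393, 2.06, 29.1 and 1.07 FPKM. The Type-2 neuron held 55.1% of its summed level. Syt4, which acts on dense-core vesicles, was at 72.6, 4.26, 64.4, 0.454, 33, 13.6, 81.7, 54.4, 3.41 and 10.2 FPKM, and shared 14.5% of its exonic bases with an antisense gene, so its values are uncertain. Syt7, the slow sensor of asynchronous release, stayed at 8.11 FPKM or less and was detected in 7 neurons. Doc2b, a high-affinity sensor linked to spontaneous release, was detected in 1, neuron 2, at 14.6 FPKM.

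Complexin 1 had the highest mean of all 37 genes. Cplx1 (chromosome 5, 108518554 to 108550024) was at 469 and 185 FPKM in the Unknown neurons 2 and 3, 464, 556 and 647 FPKM in neurons 5, 6 and 7, and 258, 414 and 475 FPKM in neurons 8, 9 and 10. In the Type-2 neuron it was at 2.28 FPKM, from 107 fragments (95% Poisson interval 87.7 to 129), and in neuron 4 at 2.3 FPKM. Cplx2 did not take its place in those neurons, at 0.702 and 0.503 FPKM. Elsewhere Cplx2 was between 0.285 FPKM in neuron 9 and 56.5 FPKM in neuron 6, and Cplx1 led it in all 10 neurons. The Type-2 neuron had thus a low level of both complexins while holding Snap25 at 130 and Stx1a at 37.1 FPKM.

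**Figure D3:**
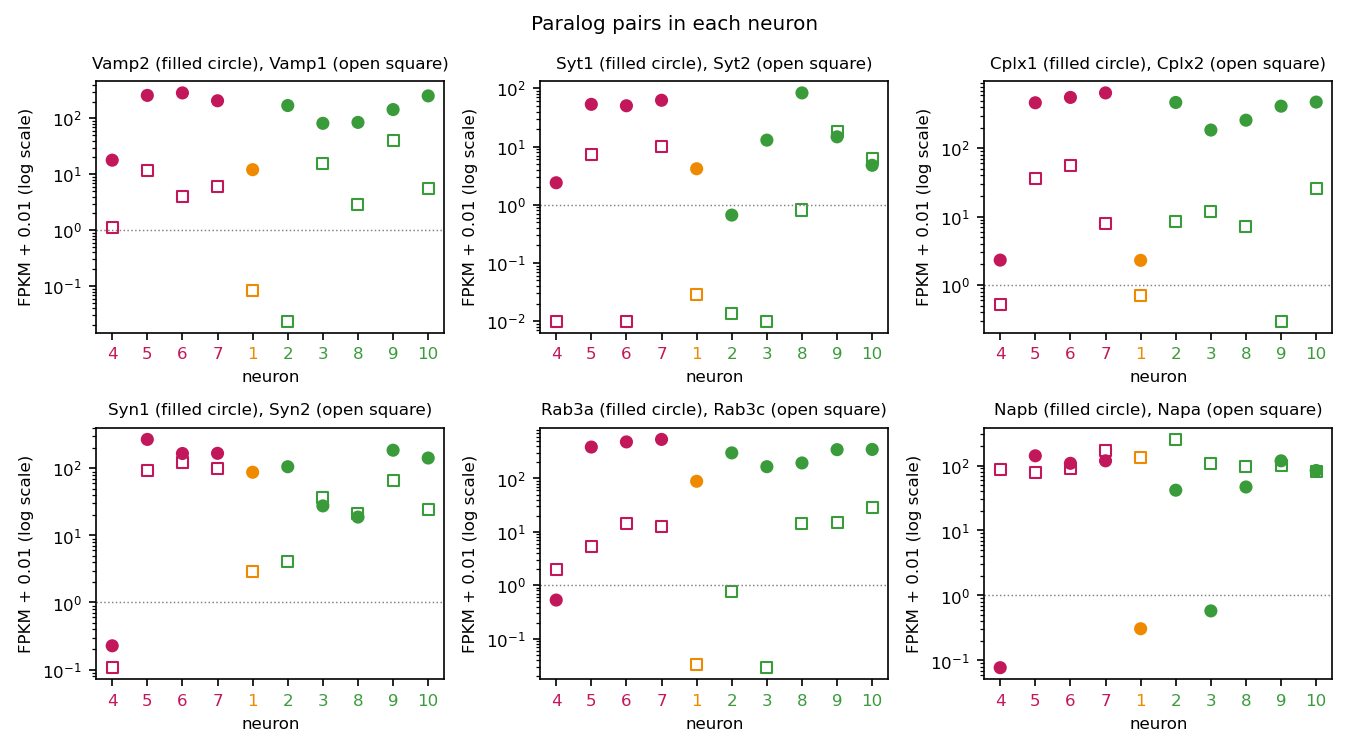
Each panel plots both genes of a paralog pair (filled circle and open square) in the 10 neurons on a log axis of FPKM + 0.01, coloured magenta for Type-1, orange for Type-2 and green for Unknown, with a dotted line at 1 FPKM. Vamp2 and Cplx1 lead their pairs in all 10 neurons, Syt2 passes Syt1 in neurons 9 and 10, and Napb drops below 1 FPKM in neurons 1, 3 and 4 while Napa stays at 77 FPKM or more.

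Of the vesicle protein genes, Syn1 (chromosome X, 20860511 to 20921004), synapsin I, was at 87.7, 106, 27.6, 0.216, 271, 167, 168, 18.8, 187 and 143 FPKM, and was above Syn2 in all but neurons 3 and 8. Syn2 was at 92.1, 121 and 101 FPKM in neurons 5, 6 and 7, and between 4.05 and 66.4 FPKM in the Unknown neurons. Syn3, the synapsin best known from developing neurons, was detected in 5 neurons, at 8.13 FPKM or less. It shares 14.1% of its exonic bases with Timp3 on the opposite strand. Syp, the tetraspan protein synaptophysin, ran from 0.104 FPKM in neuron 4 and 2.09 FPKM in neuron 2 to 112 FPKM in neuron 6. An antisense gene shares 16.8% of its exonic bases.

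The Sv2 genes encode vesicle glycoproteins that bind synaptotagmin. Sv2a (chromosome 3, 96181151 to 96195521) was at 30.8, 0.0297, 0.0831, 0.213, 16.2, 63.5, 21.6, 9.35, 18.1 and 12 FPKM. Sv2b (chromosome 7, 75114894 to 75309262) was at 24.2, 23.7, 16.8 and 5.89 FPKM in neurons 5 to 8 and did not pass 0.146 FPKM in the remaining 6. These were again the 4 neurons with Slc17a6 at 101 FPKM or more, and this link was not tested either. Sv2c was highest in neurons 8 and 9, at 36.7 and 24.4 FPKM, and had 0 fragments in neuron 6.

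Put together by family, 8 neurons had at least 1 Sv2 gene detected. The exceptions were neuron 4 and neuron 2, in which Sv2a, Sv2b and Sv2c held 5, 3 and 11 fragments. The leading gene was Sv2a in neurons 1, 6, 7 and 10, Sv2b in neuron 5, and Sv2c in neurons 3, 8 and 9.

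Rab3a (chromosome 8, 70754679 to 70758677), the main vesicle GTPase of terminals, was at 88.5, 301, 166, 0.519, 387, 483, 538, 195, 346 and 349 FPKM. Apart from neuron 4, the Type-2 neuron was lowest. Rab3c was at 0.0233, 0.765, 0.0187, 1.99, 5.42, 14.3, 12.8, 14.1, 15 and 29 FPKM, and was above Rab3a in neuron 4 alone.

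Active zone and priming genes were low. The 5 scaffold genes summed to 31.2 ± 24.1 FPKM and the 5 priming genes to 22.8 ± 18 FPKM per neuron (SD, n = 10 neurons), against 453 ± 254 FPKM for the 4 SNARE genes. Over all 37 members, those under 5000 bases were detected in a median of 9 neurons and those of 10000 bases or more in 7, and background genes of the same lengths in 6 and 5. The part of length in the levels was not tested.

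Rims1 and Rims2, which tether vesicles to calcium channels, shared the neurons evenly. Rims1 was at 0.0299, 0.0247, 1.15, 0.00434, 10.9, 3.31, 14.7, 6.28, 3.69 and 22.4 FPKM, and Rims2 (chromosome 15, 39198261 to 39684372) at 70.5, 0.0106, 6.79, 0.0294, 2.41, 4, 2.34, 7.02, 2.22 and 8.03 FPKM. Rims1 was higher in 5 neurons and Rims2 in 5, and the Type-2 neuron held 68.2% of the summed Rims2. Neither was detected in neurons 2 and 4.

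Pclo, the giant scaffold Piccolo, was at 3.47, 2.36, 7.09, 0.0287, 7.62, 8.11, 12.7, 4.96, 0.0363 and 5.57 FPKM. Its relative Bsn, Bassoon, was at 0.0205, 0.00519, 6.04, 0.292, 12.4, 3.57, 1.87, 0.00472, 2.14 and 0.0987 FPKM. Pclo was higher in 7 neurons, and in neuron 9 it was near 0 while Bsn was detected. Erc2 was detected in 7 neurons, at up to 13.8 FPKM in neuron 8.

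Different Munc13 genes led in different neurons. Unc13a (chromosome 8, 71624417 to 71671757), Munc13-1, was at 17.7, 0.0175, 0.0127, 0.0108, 0.872, 2.67, 0.358, 3.85, 2.8 and 0.101 FPKM. Unc13c, Munc13-3, was at 0.0691, 0.00314, 42.1, 0.433, 1.14, 1.83, 23.2, 0.00428, 3.64 and 1.01 FPKM, with 57.4% of its sum in neuron 3. Unc13b was detected in neurons 5 and 8, at 4.72 and 2.43 FPKM, and had 0 fragments in 5 neurons. A Munc13 gene was detected in 8 neurons: Unc13a led in neurons 1, 6 and 8, Unc13b in neuron 5, and Unc13c in neurons 3, 7, 9 and 10. Neurons 2 and 4 had none.

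Of the CAPS genes, Cadps (chromosome 14, 12372563 to 12823079) was detected in every neuron but 4, at 6.89, 3.12, 9.06, 0.0135, 28.8, 16.4, 25.1, 4.45, 12.6 and 9.12 FPKM. Cadps2 held 973 fragments in neuron 5, or 2.78 FPKM, and 0 in each of the other 9, which allows up to 0.0147 FPKM.

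Of the neurexins, Nrxn3 (chromosome 12, 88722876 to 90334935) was at 111, 4.45, 0.0456, 0.0375, 0.0172, 0, 4.82, 0.986, 15 and 5.43 FPKM, and 78.2% of its sum was in the Type-2 neuron, from 30020 fragments. Nrxn2 was between 0.0394 and 5.1 FPKM. In 8 of the 37 members over 50% of the summed FPKM came from 1 neuron, as it did in 26.6% of background genes. They were Syt5, Rims2, Unc13a and Nrxn3, each highest in the Type-2 neuron, and Doc2b, Unc13b, Unc13c and Cadps2.

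No member parted the Type-1 from the Unknown neurons. In 0 of 37 genes did all 4 Type-1 neurons lie above all 5 Unknown neurons, where 0.807% of background genes did, and in 0 did they lie below, where 0.541% did. The median difference in mean log2(FPKM + 1), Type-1 minus Unknown, was 0.19 over the members and 0.15 over the background genes. Over the members it was 0.82 without neuron 4, and it turned negative, from -0.10 to -0.26, when neuron 2, 3, 5, 6 or 7 was left out.

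Neuron 4, the CD-1 neuron among the Type-1 neurons, was at least 2-fold below every Unknown neuron, on the FPKM + 1 scale, in 11 of 37 members, against 6.22% of background genes. They were Snap25, Stx1a, Vamp2, Syt4, Syt11, Cplx1, Syn1, Syn2, Syp, Rab3a and Cadps. This is the comparison within 1 mouse line, of 1 neuron with 5. Neuron 4 was P3 and the Unknown neurons were P0 to P2, so age cannot be told apart from type here. The libraries with the least cDNA included those of neuron 4 and of the Unknown neurons 2 and 3, and the part of cDNA was not tested. Neuron 4 was the lowest of all 10 neurons in 16 members, with Doc2b tied at 0 with neurons 5 and 7, and the highest in 0. Syt2, Unc13b and Cadps2 also had 0 fragments in neuron 4, tied with other neurons, and are not among the 16. The same counts were not made over the background genes. The most abundant member of neuron 4 was Napa at 86.5 FPKM. The microglia markers given above stood in the same library, and their part in the comparison was not tested.

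Without neuron 4, the 3 Dbx1-derived Type-1 neurons lay above all 5 Unknown neurons in 6 of 37 members, against 3.96% of background genes, and below them in 0, against 1.7%. The 6 were Nsf, Syn2, Sv2b, Rab3a, Pclo and Cadps. Syn2 was at 92.1 FPKM or more in the Type-1 neurons and at 66.4 or less in the Unknown neurons, and Sv2b at 16.8 or more against 5.89 or less. Nsf was at 75.8 FPKM or more against 58.9 or less, and Rab3a at 387 or more against 349 or less, so that these groups stood close. For Cadps the bounds were 16.4 and 12.6 FPKM, and for Pclo 7.62 and 7.09 FPKM. The median difference over the members, Dbx1-derived Type-1 minus Unknown, was 0.82 on the log2(FPKM + 1) scale, and 0.37 over the background genes. It was 0.54 against 0.18 under TMM scaling (a trimmed mean of log ratios between libraries), 0.37 against 0.07 under scaling by the median ratio, and 1.35 against 0.78 in TPM. The same 6 genes stood apart without neurons 2 and 3, against 6.27% of background genes. Without neuron 9, 9 members did, which added Napb, Syn1 and Sv2a, and the background share was not computed for that set. Under TMM 2 of the 6 did (Syn2 and Sv2b), against 3.35% of background genes. Under the median ratio Sv2b alone did, against 2.91%, so that 1 of 37 was near the background share. The difference in mouse line between these neurons cannot be told apart from type. Age also differed, P0, P3 and P3 in the Type-1 neurons against P0 to P2 in the Unknown neurons. Slc17a6 was at 101 FPKM or more in the Type-1 neurons and at 1.85 FPKM or less in the Unknown neurons other than neuron 8. The part of age and of Slc17a6 was not tested.

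**Figure D4:**
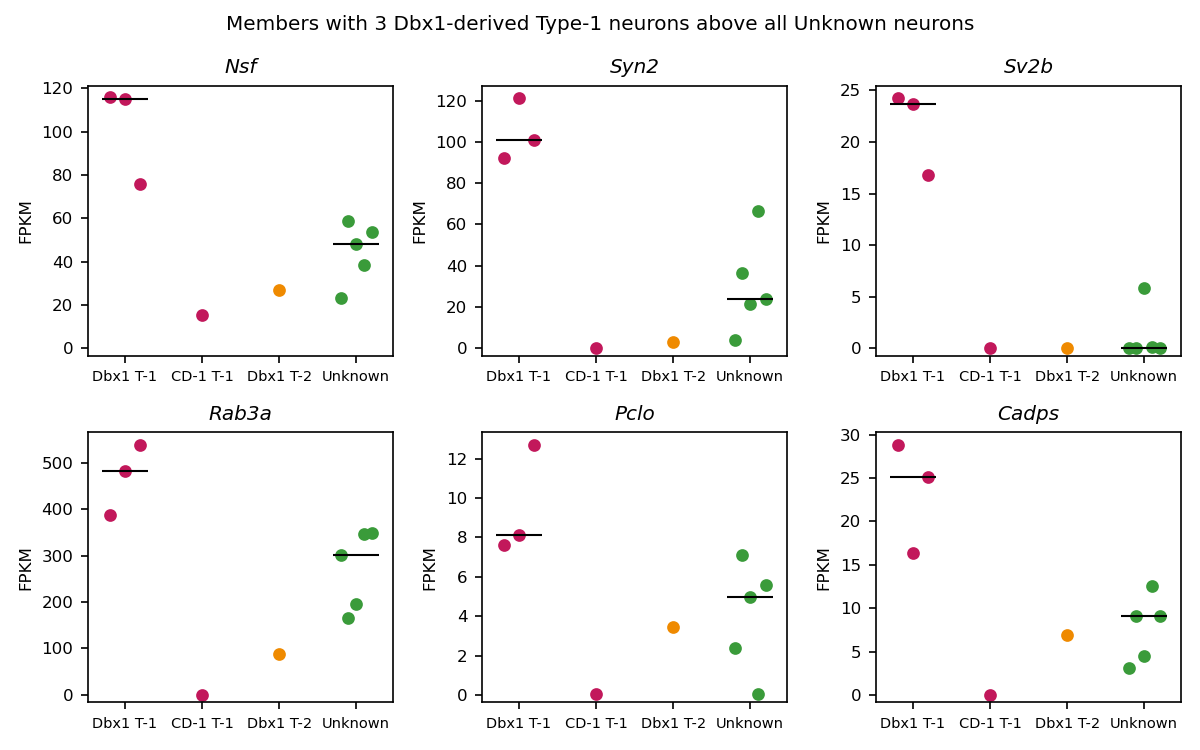
FPKM of the 6 members in which neurons 5, 6 and 7 (Dbx1 T-1) lay above all Unknown neurons, with neuron 4 (CD-1 T-1) and neuron 1 (Dbx1 T-2) beside them. Points are neurons and lines are medians. The lowest Type-1 and highest Unknown values are 16.8 and 5.89 FPKM for Sv2b and 387 and 349 FPKM for Rab3a, and neuron 4 is lowest in each panel but that of Sv2b, where it and most others lie near 0.

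Among Dbx1-derived neurons, the Type-2 neuron was at least 2-fold below each of the 3 Type-1 neurons in 16 of 37 members, against 25.4% of background genes, and at least 2-fold above each in 4, against 12.6%. It had the lowest share of background genes detected, and over the background genes its median difference from the Type-1 mean was -1.01 on the log2(FPKM + 1) scale, against -1.43 over the members. Under TMM the background and member medians were -0.74 and -0.75, and under the median ratio -0.44 and 0.03, so that the shift of the members beyond the background rested on the scaling. The largest differences downward were in Cplx1 (-7.39), Napb (-6.56), Syn2 (-4.76), Sv2b (-4.45), Vamp2 (-4.25) and Cplx2 (-3.97). Snap25, Vamp1, Nsf, Syt1, Syp, Rab3a, Rab3c, Rims1, Bsn and Cadps made up the rest.

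The 4 genes above the Type-1 neurons were Nrxn3 (5.95), Syt5 (5.23), Rims2 (4.22) and Unc13a (3.15 on the same scale). Each of these also had its highest value of all 10 neurons there. Under TMM scaling 13 members were below and 5 above, against 22.4% and 18.6% of background genes. Under median ratio scaling 11 were below and 10 above, against 19.7% and 28.3%. As deposited and under both scalings, the share of members above was no larger than that of background genes. In both, Cplx1, Cplx2, Napb, Syn2, Sv2b, Vamp1, Vamp2, Syt1, Rab3c, Rims1 and Bsn stayed below and Nrxn3, Syt5, Rims2 and Unc13a above. The same neuron had the glycine transporter Slc6a5 at 146, Gad1 at 71.8 and Gad2 at 43.5 FPKM. Slc32a1, the remaining gene of the inhibitory marker list, was at 0.0167 FPKM there, from 1 fragment. Slc17a6 was at 0.26 FPKM in this neuron, while neurons 5, 6 and 7 had it at 101 FPKM or more. Type moves together with Slc6a5, Gad1, Gad2 and Slc17a6 in this comparison of 1 neuron with 3. It also moves together with the amount of cDNA, as the Type-2 library was among those with the least and neurons 5, 6 and 7 were not. The Type-2 neuron was P0, and neurons 5, 6 and 7 were P0, P3 and P3. The part of cDNA and of age was not tested.

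**Figure D5:**
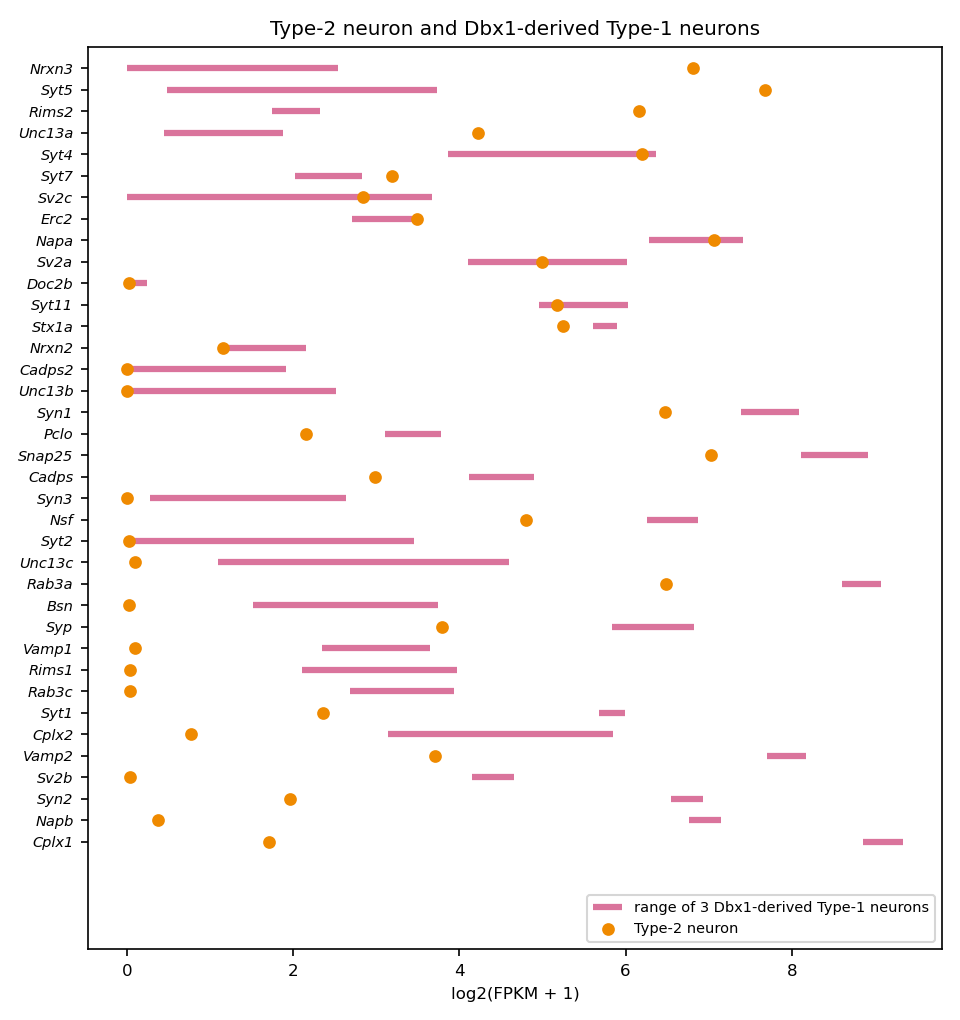
For each member, the orange point is the Type-2 neuron and the magenta bar the range of the 3 Dbx1-derived Type-1 neurons, on the log2(FPKM + 1) scale, ordered by the difference from the Type-1 mean. Cplx1 lies at the bottom with -7.39 and Nrxn3 at the top with 5.95.

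A further 47 genes of vesicle release and recycling, listed apart from the members, were all in the files. Of these, 3 had 0 fragments in each neuron (Cplx3, Cplx4 and Syt10), while Tprgl, Dnm1 and Dnajc5 were among those detected in all 10. Among the genes of this list with the highest means were Snap47 at 258 ± 153 FPKM and Syngr3 at 109 ± 109 FPKM (SD, n = 10 neurons), and Tprgl, which ran from 21.9 to 175 FPKM. No gene of this list parted the 4 Type-1 from the 5 Unknown neurons in either direction. The Type-2 neuron was at least 2-fold below the Dbx1-derived Type-1 neurons in 15 of the 47 and above them in 4, where 25.4% and 12.6% of background genes were. Syngr3, a vesicle tetraspan protein, was at 106 FPKM or more in neurons 5 to 10 and at 1.84 FPKM or less in neurons 1 to 4, the libraries with the least cDNA.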

How the data were processed

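The authors trimmed adapters with bbduk, aligned reads with STAR 2.7.7a to GRCm38 with an Ensembl annotation and counted fragments per gene with featureCounts. They deposited raw fragment counts and FPKM, and FPKM equalled count divided by gene length and by the summed count of the library. Options for multimapping, overlapping genes and strand are not given in the sources used here. Gene lengths matched the summed exons of GENCODE M21 for 35 of 37 members, and 15 members share exonic bases with another gene.

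FPKM were used as deposited, with 1 added before log2. The members, lists and comparisons were chosen with earlier results of these data known. The genes given in every neuron were the highest of each role, the paralog pairs, and those apart between types. Others given in every neuron were chosen after their values were seen. A few genes outside the members are not reported here. No test was made across genes. Measures were tested on simulated data. The 247 alternatives covered the detection level, pseudocount, TPM, scaling (TMM in edgeR 4.0.16, and median ratios over 6054 genes), thinning to the smallest library and leaving out neurons. Python 3.11.15, pandas 2.3.3 and SciPy 1.17.1 were used.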

Additional observations from a re-analysis of the deposited data

Results flagged for a closer look

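Within the Type-1 and the Unknown neurons, Dixon's criterion was applied to the highest and lowest value of each member on the log2(FPKM + 1) scale. It was also applied to 3 totals over the members, there and over all 10 neurons. Of 82 groups, 25 held a neuron past it. Chance flags about 1 in 20 only where values are normally distributed, and genes of 1 library are not independent. Where all other neurons of a group were at 0, as for Doc2b and Cadps2 in the Type-1 group, the highest is always flagged.

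Neuron 4 accounted for 16 of the 25, always as the lowest. Among the Type-1 neurons it was set apart in Snap25 (3.63 FPKM, next 276), Stx1a (0.051, next 47.6), Vamp2 (17.9, next 207), Napb (0.0675, next 108), Syt1 (2.38, next 50.3) and Cplx1 (2.3, next 464). The same held for Syn1 (0.216 FPKM, next 167), Syn2 (0.0966, next 92.1), Syp (0.104, next 56.3), Sv2b (0.0162, next 16.8), Rab3a (0.519, next 387) and Cadps (0.0135, next 16.4). Its number of members at 1 FPKM or more (10, next 31), its mean log2(FPKM + 1) over members (0.881, next 4.04) and its percent of fragments on members (0.0731, next 1.2) were also apart, and the mean of 0.881 was apart from all 10 neurons (next 2.63).

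The other flags were high values of 1 neuron, with 1 exception. In the Type-1 group they were Unc13b at 4.72 FPKM and Cadps2 at 2.78 FPKM in neuron 5, Nrxn3 at 4.82 FPKM in neuron 7, and Doc2b at 0.182 FPKM in neuron 6, where the others had 0. In the Unknown group they were Napa at 252 FPKM and Doc2b at 14.6 FPKM in neuron 2, and Sv2b at 5.89 FPKM and Unc13b at 2.43 FPKM in neuron 8. The exception was Napb, at 0.569 FPKM in neuron 3 against 41.7 FPKM or more in the other Unknown neurons.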

How the results depend on the processing

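Of 21 results, 14 neither turned direction nor moved past their limit (1.5 times for a count) in any of the 247 alternatives, of which 231 left a result in place. Most of the 14 were counts of the leading paralog. Leaving out 1 neuron lowers such a count by at most 1, which could not pass the limit, so those alternatives are no check on it. The members detected in all neurons went from 6 to 13 at a level of 0.1 FPKM and ranged from 6 to 13 with 1 neuron left out, the 13 without neuron 4. The median difference between Type-1 and Unknown neurons, 0.19, became -0.06 with 0.1 added in place of 1, became -0.09 under median ratio scaling, and ranged from -0.26 to 0.82 with 1 neuron left out, so its sign is not fixed by these data. Members with all Type-1 neurons above all Unknown neurons numbered between 0 and 6 with 1 neuron left out, the 6 without neuron 4, and those below between 0 and 1 (Doc2b without neuron 6, Nrxn3 without neuron 7). For the 3 Dbx1-derived neurons the 6 members became 2 under TMM, 1 under median ratios and 9 in TPM. The shares of background genes were 3.35%, 2.91% and 5.87%. Without neuron 9 the 6 members became 9. These checks on the 3 neurons were added after seeing the data. The members in which the Type-2 neuron was higher went from 4 to 10 under median ratios. Unc13a led Unc13b in 8 neurons, or 4 when either had to reach 1 FPKM. Scaling moved the median, Type-2 minus Dbx1-derived Type-1, from -1.43 to -0.75 under TMM and 0.03 under median ratios for the members, and from -1.01 to -0.74 and -0.44 for the background. No paired analysis was possible because no animal is named and no test was made.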

Other observations

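Levels of the members covered a wide range. Of 370 values (37 genes in 10 neurons), 54 were at 100 FPKM or more, 115 from 10 to below 100 and 95 from 1 to below 10. A further 31 lay from 0.1 to below 1 FPKM, 50 lay above 0 and below 0.1 FPKM, and 25 were at 0. The 81 values above 0 and below 1 FPKM rested on a median of 12 fragments, and in 36 of them the count was 0.1% or less of the highest count of that gene in any library. Whether such fragments came from the neuron itself was not tested.

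Exonic overlap with another gene exceeded 10% of the exonic bases for Syt4 (14.5%), Syn3 (14.1%) and Syp (16.8%), all with a gene on the opposite strand, and fragments of the overlap cannot be assigned to a strand in an unstranded library.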
